A study of Homo sapiens with 8 samples.

Results

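The replication-dependent histone genes encode the linker histone H1 and the core histones H2A, H2B, H3 and H4 in clustered gene copies, and 17 of them reached a mean of at least 1 RPKM (read counts scaled for length and library size, as deposited) over 8 RNA sequencing libraries. They were chosen as the rows whose symbol begins with HIST1H, HIST2H, HIST3H or HIST4H and that passed this level, out of 70 such symbols among the 19124 genes deposited. The libraries came from 2 long-established human colorectal cancer lines, HCT116 and HT29, each a single line and so no sample of the disease at large. Each line was transfected with 15 nM of a negative control siRNA (NC) or of an siRNA against RPL9, RPL17 or RPL27, which encode proteins of the large ribosomal subunit, by lipofectamine 2000, and total RNA was taken with Trizol after 48 h. There was 1 library per line and siRNA, so that no value within a line carries a replicate error, and the 2 lines were the only replicates of an siRNA. The p-values below therefore measure the spread between these libraries only.

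A cell in S phase, the part of the cell cycle in which DNA is copied, makes large amounts of these histones to package the new DNA, and their messages are normally made and destroyed with DNA synthesis. Most of these messages end in a conserved stem-loop instead of a poly(A) tail; the stem-loop binding protein SLBP binds it, and an endonuclease with the U7 snRNP cuts the RNA just after it. Some of the genes also give longer or spliced transcripts with a poly(A) tail, known from cells that are leaving the cycle or differentiating. The library kit named in the labels selects RNA by its poly(A) tail, so the levels below concern chiefly tailed transcripts, and stem-loop messages were not measured as such.

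Depths estimated from the smallest steps in the values of single-exon genes were 20.6 to 26.4 M (mega) reads per library, and these are rough. Each targeted gene was lowest in its own libraries: in HCT116 and HT29 in turn, RPL9 stood at 5560 and 5245 RPKM under its siRNA, RPL17 at 10004 and 8240 RPKM, and RPL27 at 2045 and 2214 RPKM. The RPL17 siRNA libraries also had less RPL27 than NC, 4723 and 4754 RPKM against 7649 and 16205 RPKM. Of 8 markers of colon epithelium 7 had a mean of at least 1 RPKM; CDX1 was at or near 0 and VIL1 was high in HT29 only. Of the fibroblast markers COL1A1 read 252 to 437 RPKM while DCN stayed at or under 0.726 RPKM. The summed fibroblast markers were at 337 to 377 RPKM in the NC libraries and 255 to 437 RPKM in the RPL siRNA libraries. The summed endothelial markers were at 2.60 to 5.17 RPKM and 0.483 to 6.75 RPKM. The part of these markers in the histone values was not tested. HT29 NC stood apart from the other 7 libraries by a trend with transcript length. Relative to the mean of the libraries, its fitted trend was 0.42 on the log2 scale at the lengths of the histone genes and -1.08 at the longest decile of genes, while at the histone lengths the others lay between -0.17 and 0.03. The differences from NC were therefore also computed with each library's length trend removed. Of the 51 differences of a single RPL siRNA from NC in HT29 (17 members and 3 siRNAs), 5 then changed sign, all from below NC to above it: HIST1H4I and HIST3H2A under RPL9, HIST1H4J and HIST1H4K under RPL17 and HIST1H1C under RPL27 siRNA. None of the 51 in HCT116 did.

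The 17 genes were 1 of class H1 (HIST1H1C), 5 of H2A (HIST1H2AC, HIST2H2AA3, HIST2H2AA4, HIST2H2AC, HIST3H2A), 5 of H2B (HIST1H2BC, HIST1H2BD, HIST1H2BK, HIST1H2BN, HIST2H2BE), 1 of H3 (HIST1H3E) and 5 of H4 (HIST1H4I, HIST1H4J, HIST1H4K, HIST2H4A, HIST2H4B). By cluster, 10 belong to HIST1 on chromosome 6, 6 to HIST2 and 1 to HIST3, both on chromosome 1, and none to HIST4. HIST2H2BE at 1.02 RPKM and HIST2H2AC at 1.14 RPKM lay just above the limit, and HIST2H2BF at 0.986 RPKM and HIST1H2BJ at 0.844 RPKM just below it. The limit leans to genes that are high under an RPL siRNA, since 6 of the 8 libraries carry one: all 17, and with them HIST2H2BF, reached it over the RPL siRNA libraries alone, while 14 reached it over the NC libraries alone. The other 3, HIST1H2BN, HIST1H3E and HIST2H2BE, entered through their RPL siRNA libraries. HIST2H2AA3 and HIST2H2AA4 had identical values in every library, as did HIST2H4A and HIST2H4B, and HIST1H4J and HIST1H4K lay within 13.0% of each other. Each pair of identical values is 1 measurement at most. HIST1H4J and HIST1H4K may not be separate measurements either, which was not tested. Both of them stay in the counts made with identical copies counted once.

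The stem-loop is shown for members of each core class because it is the site at which the tailless message ends, and the sequence after it separates the transcripts that a poly(A) library can hold. In the GENCODE v29 transcripts (GRCh38, minus-strand genes read on their own strand) a stem-loop was searched on the transcript strand as GG, any 2 bases, CTT, any base, T, any base, AG, any 2 bases and CC. Capitals mark the 2 arms of the stem, and the coordinates are those of the stem-loop without its flanks. HIST1H2AC lies at chr6:26124669-26124684, HIST1H2BD at chr6:26158587-26158602, HIST1H3E at chr6:26225596-26225611, HIST1H4I at chr6:27139654-27139669, all on the plus strand, and HIST2H2BE at chr1:149886188-149886203 on the minus strand.
HIST1H2AC: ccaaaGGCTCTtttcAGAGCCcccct
HIST1H2BD: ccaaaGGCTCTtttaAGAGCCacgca
HIST1H3E: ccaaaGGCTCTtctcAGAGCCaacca
HIST2H2BE: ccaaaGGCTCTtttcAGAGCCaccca
HIST1H4I: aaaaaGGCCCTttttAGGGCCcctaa

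The H2A, H2B and H3 genes shown share the arms GGCTCT and AGAGCC, and HIST1H4I has GGCCCT and AGGGCC. After the stem-loop the annotated transcript of HIST1H2AC runs on for 1114 bases through a spliced exon, the longest of HIST1H3E for 1862 bases, that of HIST2H2BE for 1729 bases, that of HIST1H4I for 212 bases and the unspliced one of HIST1H2BD for 39 bases. A second HIST1H2BD transcript is spliced before the stem-loop, lacks it, and ends with a polyadenylation hexamer, AATAAA, at chr6:26171325-26171330, the capitals of the line below. The unspliced HIST1H2BD transcript holds the same hexamer after its stem-loop, at chr6:26158615-26158620, so these letters do not separate the transcripts of that gene. HIST2H2BE ends with it at chr1:149884477-149884482.
HIST1H2BD: aattAATAAAatctgcggagaattgtaa
HIST2H2BE: tattAATAAAgttaccaattaatttaaa

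For 4 members (HIST1H1C, HIST1H2BK, HIST1H4K, HIST2H2AC) and 29 of the 53 other histone symbols the annotation holds only the coding sequence, which says nothing about their ends. Among genes with an annotated end, 13 of 13 members and 19 of 24 others held a stem-loop. A transcript that is spliced or runs at least 100 bases past the stem-loop was annotated for 10 of the 13 members (76.9%) and for 15 of the 24 others (62.5%). AATAAA within the last 50 bases was found in 9 and 10 of them. In HIST1H4J it lies before the stem-loop and not after it. Copies with identical values were counted separately here. These shares describe the annotation, and a gene's level over the 8 libraries chose which of them count as members.

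HIST1H1C encodes H1.2, a linker histone that binds where DNA enters and leaves the nucleosome. In HCT116 it was at 4.58 RPKM under NC, 17.8 RPKM under RPL9, 22.7 RPKM under RPL17 and 10.1 RPKM under RPL27 siRNA. In HT29 the values were 8.81, 11.3, 15.9 and 8.39 RPKM in the same order. All 3 RPL siRNA libraries of HCT116 lay above NC, by 2.20 to 4.96 times, while in HT29 RPL9 and RPL17 lay above NC and RPL27 just below it. On the scale used for all tests, log2(RPKM + 1), the mean of the RPL siRNAs was 0.98 above NC (SE 0.36, limma, adjusted p = 0.179, n = 2 lines). It was 0.35 without HCT116 NC and 1.61 without HT29 NC.

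Among the H2A genes, which encode the partner of H2B at the faces of the nucleosome, HIST1H2AC and the HIST2H2AA3/HIST2H2AA4 pair were above NC in all 6 RPL siRNA libraries. HIST1H2AC was at 1.26 RPKM under NC and 6.68, 6.64 and 2.52 RPKM under RPL9, RPL17 and RPL27 siRNA in HCT116, and at 1.76 RPKM and 5.05, 6.66 and 3.42 RPKM in HT29. Its lowest RPL siRNA library lay above both NC libraries, with a mean difference of 1.24 (SE 0.31, limma, adjusted p = 0.111). HIST2H2AA3 was at 3.01 RPKM under NC and 6.66, 5.52 and 4.92 RPKM under the RPL siRNAs in HCT116, and at 3.10 RPKM and 6.16, 12.5 and 8.0 RPKM in HT29. These groups did not overlap either, and the mean difference was 0.97 (SE 0.34, limma, adjusted p = 0.169). HIST2H2AC was at 0.210 RPKM under NC and 0.721, 0.553 and 0.555 RPKM under the RPL siRNAs in HCT116, about 2 to 6 reads each, and at 2.39 RPKM and 0.519, 3.04 and 1.14 RPKM in HT29. Its groups overlapped, and its mean difference of -0.06 (SE 0.45, limma, adjusted p = 0.945) rests on few reads and took the other sign under some settings. HIST3H2A, the single member from the HIST3 cluster, was at 2.69 RPKM under NC and 3.0, 2.24 and 4.56 RPKM under the RPL siRNAs in HCT116. In HT29 it was highest under NC at 6.24 RPKM, against 5.10, 2.86 and 3.85 RPKM, the 1 member with all 3 RPL siRNA libraries of HT29 below NC. Its mean difference was -0.20 (SE 0.35, limma, adjusted p = 0.732), and 0.04 with the length trends removed.

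The window before the annotated start of HIST1H2AC is shown because HIST1H2BC is annotated on the other side of it, on the opposite strand, while their values differ between the lines. The window, 250 bases from RefSeq on GRCh38.p14, is chr6:26123922-26124171 on the plus strand, and the annotated 5' end of HIST1H2BC is at 26123926 on the minus strand. Capitals mark 3 promoter elements, each searched on both strands: CCAAT, the core of the CCAAT box, TATAAA, the core of the TATA box, and ATGCAAAT, the octamer bound by POU2F1.
HIST1H2AC: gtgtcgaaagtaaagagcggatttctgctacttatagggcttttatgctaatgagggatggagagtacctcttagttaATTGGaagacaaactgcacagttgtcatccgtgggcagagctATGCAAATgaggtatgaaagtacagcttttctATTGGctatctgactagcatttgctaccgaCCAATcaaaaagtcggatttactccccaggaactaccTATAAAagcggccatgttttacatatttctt

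It holds CCAAT 3 times and each of the other elements once. RefSeq windows were matched for 13 members, of which 9 held CCAAT, 7 TATAAA and 3 the octamer (69.2%, 53.8% and 23.1%). Over all 35116 windows of the table the shares were 32.0%, 10.7% and 1.6%, and of the 43 other histone symbols matched 37, 30 and 16 held them. The 3 members with the octamer were HIST1H2AC, HIST2H2AC and HIST2H2BE, the last 2 of which also stand head to head. A match describes letters, not a bound site.

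HIST1H2BK had the highest mean of all members and HIST1H2BD the largest difference from NC; both encode H2B, and both are known for tailed transcripts. HIST1H2BD was at 3.28 RPKM under NC and 11.9, 13.8 and 18.4 RPKM under RPL9, RPL17 and RPL27 siRNA in HCT116, and at 4.82 RPKM and 12.5, 14.5 and 11.1 RPKM in HT29. No RPL siRNA library overlapped NC, the ratios were 3.62 to 5.61 in HCT116 and 2.30 to 3.01 in HT29, and the mean difference was 1.54 (SE 0.31, limma, adjusted p = 0.0882). It is the member nearest to the threshold of 0.05, and it passed it with the length trends removed, at 1.74 (limma, adjusted p = 0.0294), a setting under which 5.86% of all genes passed. HIST1H2BK was at 23.5 RPKM under NC and 44.6, 37.4 and 46.2 RPKM under the RPL siRNAs in HCT116, and at 40.1 RPKM and 40.9, 66.2 and 52.9 RPKM in HT29. It was above NC in all 6 libraries, by 0.60 on average (SE 0.27, limma, adjusted p = 0.232), although HCT116 under RPL9, RPL17 and RPL27 siRNA and HT29 under NC fell in the same range. Without HCT116 NC the difference was 0.37, and without HT29 NC it was 0.83. HIST2H2BE was at 0.351 RPKM under NC and 0.527, 0.956 and 1.11 RPKM in HCT116, and at 0.882 RPKM and 1.12, 1.91 and 1.33 RPKM in HT29, again above NC throughout, with a mean difference of 0.41 (SE 0.32, limma, adjusted p = 0.448). Its mean was 0.617 RPKM over NC and 1.16 RPKM over the RPL siRNAs. It passed the limit only through the latter, which favoured a value above NC.

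HIST1H2BC and HIST1H2BN were the members whose mean difference from NC in HCT116 was below 0. HIST1H2BC was at 1.15 RPKM under NC and 1.03, 0.772 and 0.830 RPKM under the RPL siRNAs in HCT116, about 9 to 14 reads each. In HT29 it was at 1.29 RPKM and 3.19, 2.02 and 2.46 RPKM. All 3 RPL siRNA libraries lay below NC in HCT116 and above it in HT29, whereas HIST1H2AC on the other side of the shared window was above NC in both lines. HIST1H2BN was at 1.02 RPKM under NC and 1.10, 0.753 and 0.810 RPKM in HCT116, and at 0.582 RPKM and 0.926, 2.96 and 1.29 RPKM in HT29. Their mean differences were 0.21 (SE 0.35, limma, adjusted p = 0.723) for HIST1H2BC and 0.31 (SE 0.42, limma, adjusted p = 0.662) for HIST1H2BN, and both were below 0 without HT29 NC, at -0.20 and -0.10. HIST1H2BN, at a mean of 0.803 RPKM over NC, passed the limit only through its RPL siRNA libraries, which favoured a value above 0.

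HIST1H3E, the only H3 gene above the limit, was listed at 0 in HCT116 NC and read 3.02, 1.46 and 1.84 RPKM under RPL9, RPL17 and RPL27 siRNA there, about 31, 14 and 21 reads. In HT29 it was at 0.849 RPKM under NC, about 9 reads, and 3.03, 4.03 and 3.50 RPKM under the RPL siRNAs. Its mean was 0.424 RPKM over NC and 2.81 RPKM over the RPL siRNAs. It passed the limit only through the latter, so that its groups had to differ, and the mean difference of 1.44 (SE 0.35, limma, adjusted p = 0.110) is a description. With NC listed at 0, no fold is given for HCT116; in HT29 the ratios to NC were 3.56 to 4.75.

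The H4 genes encode a protein that pairs with H3 at the centre of the nucleosome. In HCT116 5 of 5 were above NC in all 3 RPL siRNA libraries. In HT29 2 of 5 were, the pair HIST2H4A and HIST2H4B. That pair is 1 measurement at most, so the 5 cases are not independent. HIST1H4J and HIST1H4K, within 13.0% of each other, may not be separate measurements either. HT29 NC is also the library with the length trend. With the length trends removed, the HT29 difference from NC of HIST1H4I under RPL9 was 0.08. Those of HIST1H4J and HIST1H4K under RPL17 were 0.22 and 0.17. Each H4 member was then above NC with all 3 RPL siRNAs in both lines. HIST2H4A was at 0.696 RPKM under NC and 2.84, 2.32 and 4.18 RPKM under RPL9, RPL17 and RPL27 siRNA in HCT116, and at 2.97 RPKM and 3.82, 7.39 and 4.19 RPKM in HT29. The HT29 NC value lay above those of HCT116 under RPL9 and RPL17, and the mean difference was 0.92 (SE 0.39, limma, adjusted p = 0.217). HIST1H4I was at 2.86 RPKM under NC and 6.57, 4.57 and 4.91 RPKM in HCT116, and at 3.53 RPKM and 2.66, 7.43 and 6.28 RPKM in HT29, where RPL9 lay below NC; the mean difference was 0.56 (SE 0.41, limma, adjusted p = 0.405). HIST1H4K was at 1.43 RPKM under NC and 4.07, 3.0 and 4.79 RPKM in HCT116, and at 3.32 RPKM and 3.84, 3.13 and 3.87 RPKM in HT29. Its near-copy HIST1H4J ran from 1.29 RPKM in HCT116 NC to 4.20 RPKM in HCT116 under RPL27, with 3.31 RPKM in HT29 NC. In HT29 both ran from 0.904 to 1.16 times NC, and their mean differences were 0.55 (SE 0.34, limma, adjusted p = 0.346) and 0.51 (SE 0.34, limma, adjusted p = 0.378). Without HCT116 NC these were 0.09 and 0.05 and that of HIST2H4A 0.58, and without HT29 NC they were 1.01, 0.97 and 1.25.

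**Figure D1:**
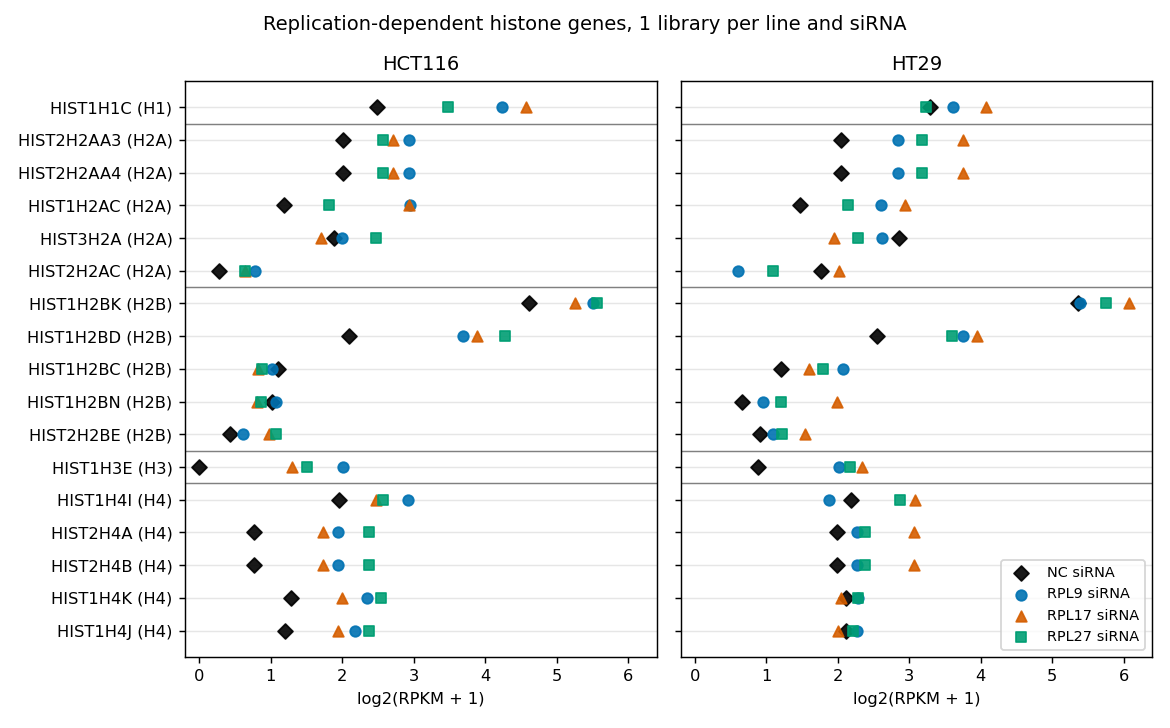
Level of each of the 17 histone genes as log2(RPKM + 1), by class, in the 4 libraries of HCT116 (left) and of HT29 (right), 1 point per library and no error bar since there is 1 library each. The NC diamond is the lowest point of its row in 14 genes in HCT116 and in 11 in HT29.

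Counted together, 14 of 17 members were above NC with all 3 RPL siRNAs in HCT116, where 33.0% of the 14281 genes tested were. In HT29 11 of 17 were (46.6% of all genes), and in both lines 9 of 17 (18.0%). For 5 members, HIST1H3E among them, the lowest of the 6 RPL siRNA libraries lay above the higher NC library, which held for 11.8% of all genes. All 3 RPL siRNAs lay below NC for 1 member in each line, HIST1H2BC in HCT116 and HIST3H2A in HT29. With identical copies counted once, the counts were 12, 9 and 7 of 15. Restricted to the 14 members that reach 1 RPKM over the NC libraries alone, they were 12, 8 and 7. With the length trends removed, a setting added after the data were seen, they were 14, 15 and 13 of 17, beside 34.8%, 36.0% and 16% of all genes. The 3 RPL siRNAs of a line share 1 NC library, so these counts are not independent from siRNA to siRNA. Of the 53 histone symbols under the limit, 9 in HCT116 and 8 in HT29 were above NC with all 3 RPL siRNAs, and 4 and 4 below. Of these 53, 4 were listed at 0 in every library and many others rest on few reads, so their counts are uncertain. The shares of all genes above cover only genes of at least 1 RPKM and are no measure for them.

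None of the 17 members passed an adjusted p of 0.05 when the RPL siRNAs together were set against NC (limma), a comparison in which 0.168% of all genes did. At an unadjusted p under 0.05 (24.6% of all genes) there were 6, all higher (HIST1H1C, HIST1H2AC, HIST1H2BD, HIST1H3E and the pair HIST2H2AA3 and HIST2H2AA4), where 14.9% of all genes were higher at that level. Of these 6, HIST1H3E had passed the limit only through its RPL siRNA libraries. The RPL9 siRNA comparison called 0 members (0.00700% of all genes) and had 3 at an unadjusted p under 0.05 (20.4%). RPL17 siRNA called 0 (0.0140%) and had 6 (15.7%), and RPL27 siRNA called 0 (0% of all genes) and had 2 (16.7%). The median difference over the members was 0.60 (15 of 17 above 0), beside 0.10 over all genes tested. With identical copies counted once, also chosen after the data were seen, it was 0.56 (13 of 15 above 0). Over the 14 members that reach 1 RPKM in the NC libraries alone it was 0.76 (12 above 0), and 0.58 over the 12 of these left with copies counted once. Under quantile normalization and median-centring 15 were again above 0, and with the length trends removed 17. The median was 0.83 in HCT116 and 0.58 in HT29, beside 0.01 and 0.19 over all genes. With identical copies counted once these were 0.83 and 0.42, and 0.90 and 0.40 over the 12 that reach 1 RPKM in the NC libraries alone. Over both lines the 17 members had medians of 0.61, 0.71 and 0.66 for RPL9, RPL17 and RPL27 siRNA. By class the median was 0.98 for H1, 0.97 for H2A, 0.41 for H2B, 1.44 for H3 and 0.56 for H4, and by cluster 0.58 for HIST1, 0.92 for HIST2 and -0.20 for HIST3. H1, H3 and HIST3 held 1 member each, so their values are those of a single gene. HIST1H3E, the H3 member, passed the limit only through its RPL siRNA libraries, which favoured a value above 0. The same holds for HIST1H2BN and HIST2H2BE among the 5 H2B members. With identical copies counted once the H2A median was 0.46 over 4 genes (2 above 0), the H4 median 0.56 and the HIST2 median 0.66 over 4 genes. Of the 7 genes listed as known for tailed transcripts 6 were members, with a median of 0.79, and 6 of 6 were above 0. Of these 6, HIST2H2BE had passed the limit only through its RPL siRNA libraries, which favoured a value above 0. HIST1H2BC was below NC with all 3 RPL siRNAs in HCT116. The remaining gene, HIST1H2BJ, lay under the limit. In whole-culture RNA, a change in the share of cells in a given state and a change in RNA per cell cannot be told apart.

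**Figure D2:**
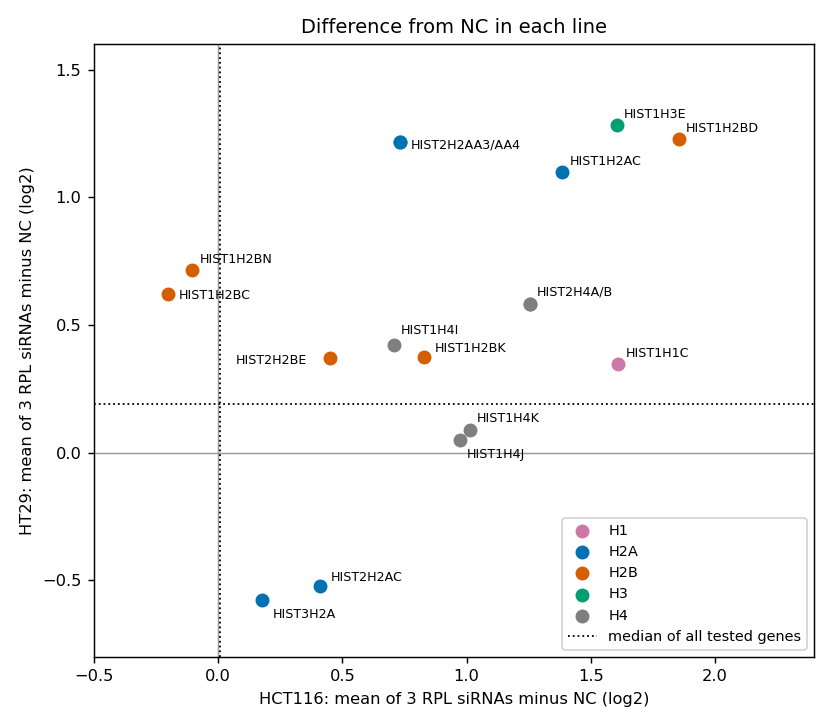
Mean difference of the 3 RPL siRNAs from NC on the log2(RPKM + 1) scale for each histone gene, HCT116 on the x axis and HT29 on the y axis, coloured by class, with dotted lines at the median of all tested genes (0.01 and 0.19). HIST1H2BD, HIST1H3E and HIST1H2AC lie far from 0 on both axes, and HIST2H2AC and HIST3H2A lie above 0 in HCT116 and below 0 in HT29.

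The summed level of the members, with copies counted once, was 47.4 RPKM under NC and 114, 106 and 109.9 RPKM under RPL9, RPL17 and RPL27 siRNA in HCT116, ratios of 2.41, 2.23 and 2.32. In HT29 it was 84.0 RPKM and 104, 153 and 115 RPKM, ratios of 1.24, 1.83 and 1.37. HT29 NC is the library with the length trend, fitted at 0.42 on the log2 scale at the histone lengths. Its part in these ratios and in the class sums was not tested, and no sum was computed with the trends removed. H2B genes held most of the summed level, at 29.4 RPKM in HCT116 NC and 47.7 RPKM in HT29 NC, chiefly HIST1H2BK. H2A sums were at 7.17 RPKM and 13.5 RPKM under NC and H4 sums at 6.27 RPKM and 13.1 RPKM. In both classes HT29 NC lay within the range of the RPL siRNA libraries of HCT116, which ran from 12.6 to 17.1 RPKM for H2A and from 12.7 to 18.1 RPKM for H4. The 53 histone symbols under the limit together read 5.995 RPKM under NC and 8.11 to 11.4 RPKM under the RPL siRNAs in HCT116, and 7.52 RPKM and 11.0 to 15.6 RPKM in HT29.

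**Figure D3:**
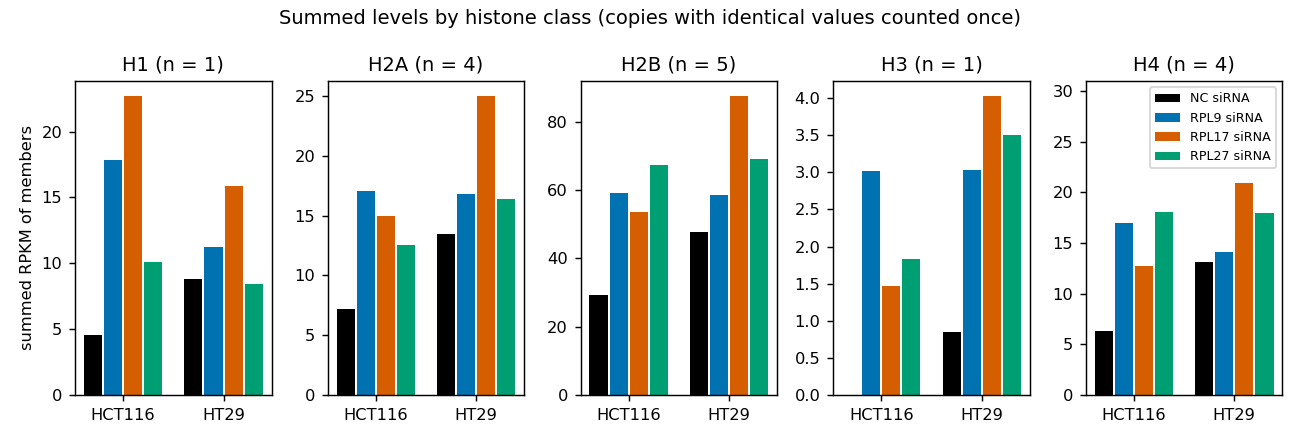
Summed RPKM of the histone genes of each class in every library, 1 bar per library, with copies of identical value counted once and n the number of genes summed; the y axes differ. HT29 under RPL17 siRNA has the highest bar of its line in all 5 classes, and the H3 bar of HCT116 NC is absent because HIST1H3E was listed at 0.

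Among the RPL siRNAs themselves the order differed between the lines. In HT29 RPL17 siRNA gave the highest of the 4 levels for 13 of 17 members, and in HCT116 RPL27 gave it for 8, RPL9 for 7 and RPL17 for 1. RPL9 was above RPL17 in 14 members in HCT116 and in 4 in HT29, with the same sign in both lines for 7. RPL9 was above RPL27 in 9 and 6 members, with the same sign for 8, and RPL17 above RPL27 in 4 and 13, with the same sign for 8. No member passed the test in any of the 3 pairs (limma on the 6 RPL siRNA libraries). Of all genes 0.329% passed for RPL9 against RPL17, 1.38% for RPL9 against RPL27 and 0.938% for RPL17 against RPL27. At an unadjusted p under 0.05 the members numbered 0, 0 and 2 (19.6%, 20.0% and 17.4% of all genes). The 2 were HIST1H1C and HIST1H2AC, both higher under RPL17 than under RPL27 siRNA, as were 9.19% of all genes at that level. HIST1H1C differed by 1.09 in HCT116 and 0.85 in HT29, a mean of 0.97 (SE 0.27, limma, adjusted p = 0.159), and HIST1H2AC by 1.12 and 0.79, a mean of 0.96 (SE 0.36, limma, adjusted p = 0.253). HIST1H2AC was also the member with the largest same-sign difference between RPL9 and RPL27, 1.13 and 0.45 (limma, adjusted p = 0.289). Between RPL9 and RPL17 it was HIST3H2A, at 0.30 and 0.66 (limma, adjusted p = 0.555).

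Between the lines, under the RPL siRNAs, 11 of 17 members were lower in HCT116 than in HT29, with a median difference of -0.40, beside 0.04 over all genes. None passed the test, in which 22.9% of all genes did, and 1 had an unadjusted p under 0.05 (37.7% of all genes), HIST1H2BC, lower in HCT116 (17.6% of all genes) at -0.91 (SE 0.33, limma, adjusted p = 0.0983). The difference from NC was larger in HCT116 for 13 of 17 members, with a median of 0.45 for HCT116 minus HT29, beside -0.19 over all genes. No member passed the test of that difference, the interaction of line and RPL siRNA, which 22.9% of all genes passed, and 0 had an unadjusted p under 0.05 (36.0% of all genes). HIST1H1C had the largest such difference, 1.26 (SE 0.73, limma, adjusted p = 0.256). With the length trends removed the median was 0.07, beside 0.08 over all genes.

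Genes of S phase, histone chaperones and histone variants lay below NC in most cases, and genes of histone 3' processing lay near all genes, although 0 genes of these lists passed the test of the mean of RPL siRNAs (limma). At an unadjusted p under 0.05, where 24.6% of all genes were, there were 9 of 12 variants, 18 of 22 S phase genes, 10 of 17 chaperones and 4 of 22 genes of 3' processing and transcription. Their counts under other scalings were added after the data were seen. The 12 replication-independent histone variants, which are made outside S phase as well, mostly from ordinary tailed messages, were below NC in 12 of 12 cases, with a median of -0.66 (11 of 12 with the length trends removed). H2AFZ, which encodes the variant H2A.Z, was at 4719 RPKM under NC and 2282, 2812 and 1781 RPKM under RPL9, RPL17 and RPL27 siRNA in HCT116, and at 6934 RPKM and 2226, 2211 and 1673 RPKM in HT29 (-1.42, limma, adjusted p = 0.0662). H2AFY, encoding macroH2A, differed by -0.04 (limma, adjusted p = 0.869). Of 22 genes of S phase, 21 were below NC, with a median of -0.71 (-0.74 in HCT116 and -0.68 in HT29). MCM7, a subunit of the replicative helicase, differed by -0.91 (limma, adjusted p = 0.0662) and PCNA, the sliding clamp, by -0.58 (limma, adjusted p = 0.136). With the length trends removed 22 of 22 were below NC and 16 passed the threshold (limma), beside 5.86% of all genes, MCM7 and MCM3 among them. All 22 were higher under RPL17 than under RPL27 siRNA, where the median difference over all genes was 0.004. Of the 22, 4 passed the threshold (MCM3, MCM7, CDC6 and CCNA2), beside 0.938% of all genes. The histone members were split, 11 of 17 above 0.

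Of 17 histone chaperones and assembly factors 11 were below NC, with a median of -0.40, and 4 passed the threshold with the length trends removed, under which 5.86% of all genes did (ASF1B, CHAF1A, RBBP7 and NASP). Of those with the highest RPKM, SSRP1, a subunit of the FACT complex, was at -0.40 (limma, adjusted p = 0.130). SUPT16H, the other subunit, was at 0.33 (limma, adjusted p = 0.222). Of 22 genes for the transcription and 3' processing of histone messages 14 were above NC, with a median of 0.13, close to the 0.10 of all genes; under the other scalings 9 to 11 were, and the median was -0.07 to -0.02. SYMPK, the scaffold of the cleavage complex, was at 0.13 (limma, adjusted p = 0.514). SLBP itself was at 1059 RPKM under NC and 634 to 748 RPKM under the RPL siRNAs in HCT116, and at 977 RPKM and 607 to 726 RPKM in HT29, a mean difference of -0.58 (limma, adjusted p = 0.104). NPAT, the activator of histone gene transcription in S phase, was at 289 RPKM under NC and 222 to 233 RPKM under the RPL siRNAs in HCT116. In HT29 it was at 61.9 RPKM and 241 to 278 RPKM. Its difference from NC in HCT116 minus that in HT29 was -2.37, which rests on 1 NC library per line. HT29 NC is the library with the length trend, whose part in the NPAT value was not tested. ERI1, an exonuclease that trims the histone stem-loop end, was lower under RPL27 siRNA (198 RPKM in HCT116, 149 RPKM in HT29) than under RPL9 (368 and 329 RPKM, a difference of 1.01, limma, adjusted p = 0.0295). SLBP, NPAT and ERI1 were picked from their list for what they are known to do or because they passed a test, with their values seen.

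**Figure D4:**
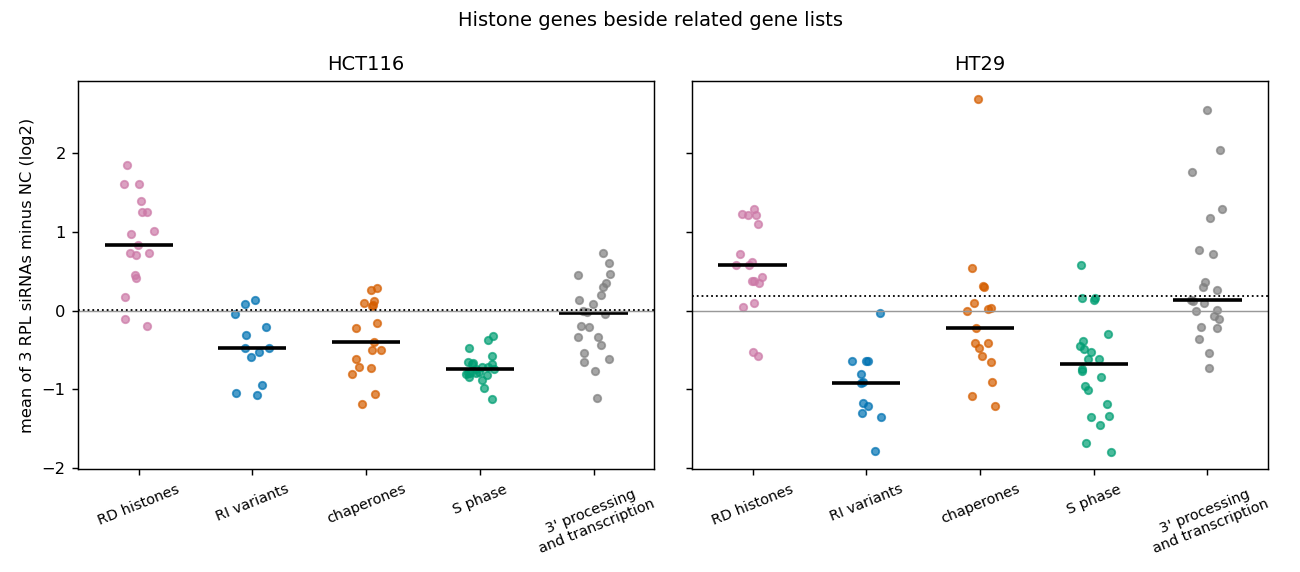
Mean difference of the 3 RPL siRNAs from NC on the log2(RPKM + 1) scale, 1 point per gene, in HCT116 (left) and HT29 (right) for the replication-dependent (RD) histone members, the replication-independent (RI) variants, chaperones, S phase genes and genes of histone 3' processing and transcription, with black bars at list medians and a dotted line at the median of all tested genes. The member medians are 0.83 and 0.58 (0.83 and 0.42 with identical copies counted once) and the S phase medians -0.74 and -0.68.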

How the data were processed

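Total RNA from 8 cultures was sequenced, 1 library per line and siRNA. Per the submitters' processing notes, CASAVA 1.8.2 and TopHat2 2.0.9 were used with hg19; how reads were assigned to genes: not given in the sources used here. The authors deposited RPKM per gene symbol. The values behave like sums of exon RPKMs, so levels of genes with several exons are not comparable with those of other genes. This limits the H2A sums, which hold HIST1H2AC, and the naming of genes by their level. No counting intervals were computed. Depth was estimated from 1186 single-exon genes, whose low values came out whole, to within 0.1 read, in 59.6% to 68.6% of cases. The 14281 genes averaging 1 RPKM or more were tested on log2(RPKM + 1), which understates differences of low genes, with limma 3.58.1 (trend, R 4.3.3) and terms for line and siRNA (two-sided, Benjamini-Hochberg over all genes, 0.05). Comparisons among RPL siRNAs and between the lines used the 6 RPL siRNA libraries; the line difference used line, any RPL siRNA and their interaction. Lists were described by counts and medians. The script was tested on simulated data. Members, lists and the naming rule (in each class the 3 highest genes, the extremes, the genes known for tailed transcripts and the largest difference per siRNA pair; the other members were added) were chosen with earlier results of these data known. Alternatives were pseudocounts, filters, scalings, length trend removal (spline with 5 degrees of freedom, GENCODE v29 lengths for 14180 genes and 17 of 17 members), other limma settings, no line term and each library left out. Leukocyte markers are not reported here.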

Additional observations from a re-analysis of the deposited data

Results flagged for a closer look

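HIST1H2BC was above NC with all 3 RPL siRNAs in HT29 and below it with all 3 in HCT116, which singled it out. The difference from NC in HCT116 minus that in HT29 was -0.82 on the log2(RPKM + 1) scale. The interaction of line and RPL siRNA gave an adjusted p of 0.387 (limma), so the difference did not pass the test, and the values in HCT116 rest on about 9 to 14 reads per library.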

How the results depend on the processing

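Of 294 values of single members over the alternatives, 284 kept the direction of the main value, and 13 of 17 genes never changed sign. With the length trends removed 1 member was called against NC (HIST1H2BD, beside 5.86% of all genes), HIST2H2AC turned to 0.090 and HIST3H2A to 0.036; with a pseudocount of 0.1 HIST2H2AC turned to 0.14. Leaving out 1 library gave 0 to 2 members called for the mean of the RPL siRNAs and for RPL9 siRNA, and 0 to 1 for RPL17 and RPL27 siRNA. Without HT29 NC, HIST1H1C (1.61, limma, adjusted p = 0.0326) and HIST1H2BD (1.85, limma, adjusted p = 0.0329) were called in the mean (12.9% of all genes), and without HCT116 NC HIST1H2BD was (1.23, limma, adjusted p = 0.0379; 48.6% of all genes). The lone NC library is then assumed to vary like the others. Every member called against NC with a library left out, also for a single siRNA, came from these fits without an NC library. In them the share of all genes called was far above that with no library left out, for each siRNA as well. These calls therefore do not set the members apart from all genes. Over the libraries left out, HIST2H2AC ranged from -0.52 to 0.41, HIST3H2A from -0.58 to 0.17, HIST1H2BC from -0.20 to 0.62 and HIST1H2BN from -0.10 to 0.71, each changing sign. Without HCT116 NC, HIST1H4J fell to 0.05 and HIST1H4K to 0.09. HIST1H2BC was called between the lines in limma without trend (1 member, beside 7.15% of all genes). The cause of these changes was not tested. The member median of 0.60 was 0.83 with a pseudocount of 0.1, 0.42 with a pseudocount of 5, 0.97 with a mean of at least 5 RPKM (5 members), 0.40 with median-centring, which moved the median of all genes from 0.10 to -0.10, and 0.51 to 0.83 with a library left out. The labels give no replicate numbers; the line term is the only block, and without it (no replicate block) 0 members were called and the median was 0.60. The interaction could not be fitted without an NC library. RPKM keeps no read counts, so members of few reads, HIST2H2AC above all, are the least certain.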
